A study of Ovis aries with 95 samples.

Results

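KITLG, FLT3LG, IL7 and KIT are genes of hematopoietic growth factor signalling, and they were followed here in the brain of fetal and newborn sheep. KITLG, also called stem cell factor, binds KIT, a receptor tyrosine kinase carried by hematopoietic stem cells, mast cells, melanocytes and germ cells, and both are also made in the brain. FLT3LG is the ligand of the receptor FLT3 on hematopoietic progenitors and dendritic cell precursors. IL7 is a cytokine for developing and resting lymphocytes whose receptor is built of IL7R and IL2RG and signals through STAT5. The members were chosen by gene name, as the probes whose name, record or description in the array files was one of these 4 genes. This rule found 9 probes of 15008 on the array, for 4 genes of 14347 genes or unnamed sequences.

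RNA came from cortex, brainstem, hippocampus and hypothalamus of sheep fetuses on gestation days 80, 100, 120, 130 and 145 and of newborn lambs 1 d after birth. No group received a treatment, the cortex sample was a piece of frontal cortex, and the ages are those of the labels, of which 100 d and 145 d stand for a few days each in the study's methods. Each of the 24 groups had 4 arrays except hippocampus at 100 d, which had 3, so that 95 one-colour arrays were analysed. Each group held a pair of twins that the labels do not mark, so the p-values treat related animals as unrelated. By the study's methods 4 animals an age gave all 4 regions, so arrays of different regions share animals, which the labels do not mark and the tests between regions do not take into account. In such whole-tissue RNA, fewer cells of a type and less RNA per cell cannot be told apart.

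The arrays lay on 14 slides, each with RNA of 1 region only, so region and slide cannot be told apart except through the spread among slides of a region. Between 59.5 and 88.5% of the gene spots of an array were well above background. Named probes existed for 8 of 14 listed markers of hypothalamus. GHRH, AGRP and GNRH1 were well above background on 24 of 24 hypothalamus arrays, and GNRH1 on 0 arrays of the other regions. OXT, POMC and PMCH also had their highest mean in hypothalamus. NPY and SST did not, with log2 means of 11.2 and 13.27 there, 12.5 and 14.35 in cortex, and 12.53 and 14.56 in hippocampus. Levels below are log2 normalized intensities. A dim probe lies near 6 on this scale, and its differences are narrowed by the offset of 50 that the background correction adds. On the median array the dimmest probe marked as well above background read 6.05, and over all arrays this value ran from 5.66 to 6.31.

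The probes are shown because the naming of the KITLG probes and the overlap between the probes of a gene bear on the results. Capitals mark the run of bases that the probes of a gene share, and the probes are written 5′ to 3′ as the array files give them.
KITLG probe 1: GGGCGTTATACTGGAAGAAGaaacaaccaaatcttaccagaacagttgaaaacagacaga
KITLG probe 2: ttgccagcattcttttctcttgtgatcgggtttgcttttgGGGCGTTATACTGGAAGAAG
KIT probe 1: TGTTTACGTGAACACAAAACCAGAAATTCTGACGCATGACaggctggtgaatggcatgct
KIT probe 2: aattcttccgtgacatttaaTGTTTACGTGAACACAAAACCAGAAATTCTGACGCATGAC
The KITLG probes overlap by 20 bases and the KIT probes by 40 bases. Both FLT3LG probes, whose record is filed under a locus identifier and is FLT3LG in RefSeq (assembly ARS-UI_Ramb_v3.0), share 59 of their 60 bases. For these and the remaining probes the first 30 bases are given.
FLT3LG probe 1: TGGAGGAAGTCAGCTAGAACCTGGTCCTTT
FLT3LG probe 2: tTGGAGGAAGTCAGCTAGAACCTGGTCCTT
IL7 probe 1: ggggcattacagaacattgaaaatatggag
STAT5A record, probe 1: TTGTGATTTTGTGTTTGTATCTCTGTGCAT
STAT5A record, probe 2: aTTGTGATTTTGTGTTTGTATCTCTGTGCA
The array files name 4 probes KITLG and describe all of them as KIT ligand. The record given for 2 of these 4 probes is STAT5A in RefSeq, and MGF is a synonym of both genes there. These 2 probes share 59 bases and are described apart from KITLG below, as the probes of the STAT5A record.

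Detection differed between the genes. FLT3LG was well above background on 95 of 95 arrays and KITLG on 86, counting an array when at least 1 probe of the gene was. KIT was well above background on 60 arrays and IL7 on 5. IL7 had 19 of 24 groups in which no array was well above background, so its level there is only a bound, and KIT had 2 such groups, brainstem at 120 d and brainstem 1 d after birth. KITLG probe 1 was well above background on 15 of 24 hypothalamus arrays, but on 4 in cortex, 3 in brainstem and 1 in hippocampus. KITLG probe 2 was well above background on 85 of 95 arrays and on 24 of 24 in hypothalamus. FLT3LG in all regions and KITLG in hypothalamus were thus above background on every array, while KIT and IL7 lay at the edge of what the arrays measured.

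**Figure D1:**
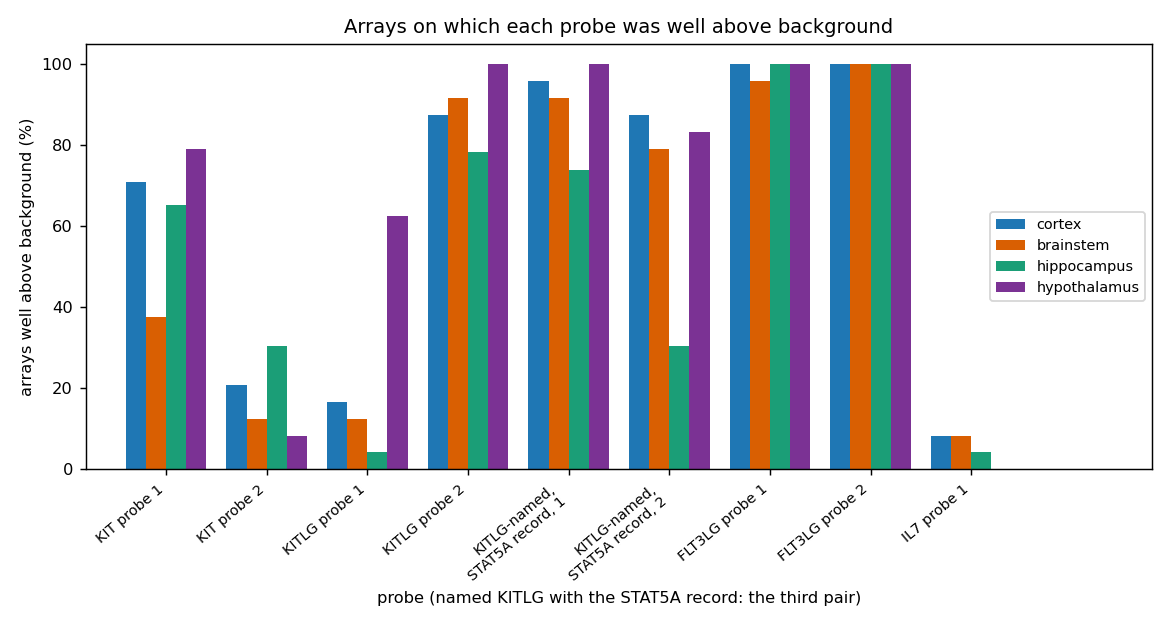
Percent of the arrays of each region (24, hippocampus 23) on which each of the 9 probes was well above background, 1 bar per region. Both FLT3LG probes are at or near 100% in every region, and the IL7 probe is well above background on 5 of 95 arrays.

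No member passed the F test of limma over the 6 ages. Of 14 tests of a gene in a region, 0 passed at an adjusted p of 0.05 and 2 had an unadjusted p under 0.05, KIT and KITLG in brainstem. Over all genes the same test called 45.3% in cortex, 40.5% in brainstem, 15.8% in hypothalamus and 3.03% in hippocampus. IL7 was not tested in hippocampus and hypothalamus, where it did not pass the filter on dim probes. Of 98 tests of single steps and of the later ages against 80 d, 1 passed, KIT in brainstem, and 10 had an unadjusted p under 0.05. Over all genes 8.78% of these tests passed. A p that misses the threshold does not show that a level stayed the same.

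All 4 genes differed between the regions by the limma F test over the 95 arrays, a test that 84.2% of all genes passed. The adjusted p was 1.64e-13 for KITLG, 8.81e-08 for FLT3LG, 5.81e-06 for KIT and 0.0202 for IL7. With the slide as a random block the values were 6.77e-07, 0.00379, 0.0114 and 0.403, so the call for IL7 was lost. Of the 24 pairs of regions of the 4 genes, 10 passed, and over all genes the share called in either direction was 52.3% for brainstem and cortex, 51.6% for hippocampus and cortex, 48.4% for hypothalamus and cortex, 47.8% for hippocampus and brainstem, 46.6% for hypothalamus and hippocampus, and 45.5% for hypothalamus and brainstem.

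KITLG was highest in hypothalamus. Its mean over the 6 ages was 6.88 there, 6.38 in hippocampus, 6.37 in cortex and 6.29 in brainstem. The 24 hypothalamus arrays ran from 6.24 to 7.57 with a median of 6.86, those of cortex from 6.14 to 6.64, those of brainstem from 6.09 to 6.51 and those of hippocampus from 6.11 to 7.14. The ranges overlap, since the lower hypothalamus arrays, among them most of those at 145 d and in newborns, lie within the range of the other regions. Hypothalamus exceeded cortex by 0.51 ± 0.06 (SE; adjusted p = 1.74e-10 in limma), brainstem by 0.59 ± 0.06 (2.87e-12) and hippocampus by 0.50 ± 0.06 (9.75e-10). Over all genes, 26.2% were higher in hypothalamus than in cortex, 26.8% than in brainstem and 22.8% than in hippocampus. Cortex, brainstem and hippocampus did not differ in KITLG beyond their spread, with adjusted p from 0.281 to 0.948. Both probes placed hypothalamus first: against cortex the difference was 0.85 for probe 2 and 0.17 for probe 1 (adjusted p = 3.24e-11 and 0.00647). The scanner's processed signal, which has no offset, gave 1.66, 1.57 and 1.41 for the same 3 differences.

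Within the hypothalamus the KITLG level, as the mean of its 2 probes, was highest at 80 d. The 4 arrays read 7.57, 7.49, 6.79 and 7.17 at 80 d, a mean of 7.26 ± 0.35 (SD, n = 4). They read 7.38, 6.79, 6.62 and 6.64 at 100 d, 6.93, 7.14, 7.0 and 6.92 at 120 d, and 7.45, 6.83, 7.22 and 6.24 at 130 d. At 145 d they read 6.89, 6.58, 6.36 and 6.46, a mean of 6.57 ± 0.23, and 1 d after birth 7.17, 6.49, 6.47 and 6.54, a mean of 6.67 ± 0.34. The arrays at 80 d and 145 d overlap through 1 array each, as do those at 80 d and 1 d after birth. Probe 2 alone was also highest at 80 d, with a mean of 8.21. Probe 1 had a mean of 6.30 at 80 d and its highest, 6.47, at 120 d.

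**Figure D2:**
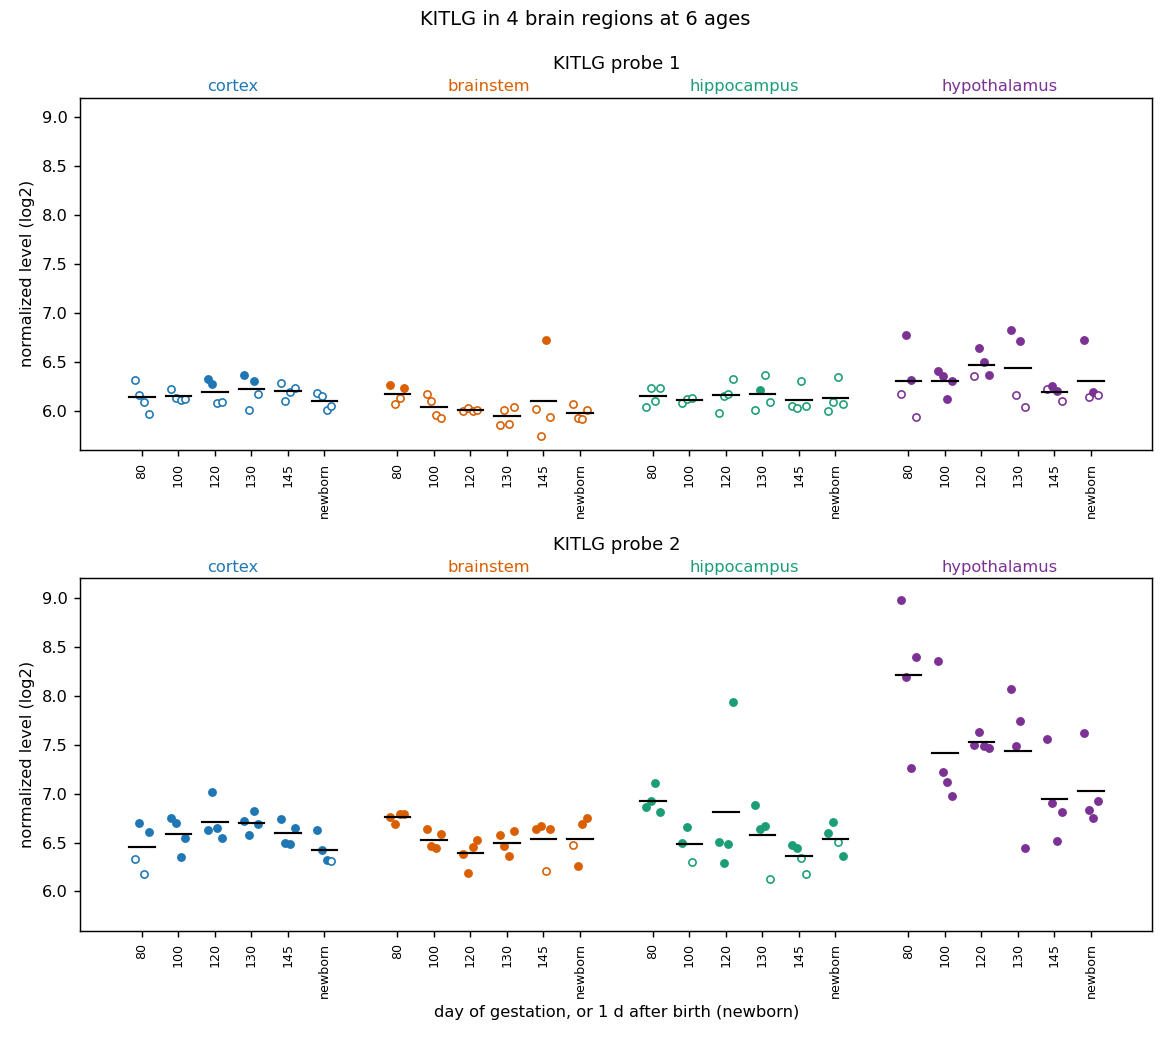
Normalized level (log2) of the 2 KITLG probes on each array, by region and age. Filled points are well above background, open points are not, and the bars are means. Hypothalamus stands above the other regions with probe 2, where the mean goes from 8.21 at 80 d to 6.95 at 145 d, while probe 1 stays between 5.74 and 6.83 on all arrays.

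The change in hypothalamus was −0.69 ± 0.24 from 80 d to 145 d (SE; adjusted p = 0.0589) and −0.59 ± 0.24 from 80 d to 1 d after birth (0.094), so neither passed in limma. An exact two-sided permutation test gave 0.0571 for both. The call for 145 d against 80 d depended on how it was made. It passed for probe 2 on its own (−1.26, adjusted p = 0.0244), with the slide as a block (−0.54, 0.0409) and in the authors' series table, which holds probe 2 only (−1.03, 0.0238). It did not for probe 1 (−0.11, 0.787) or the processed signal (−1.23, 0.2). It also passed when any 1 of 6 arrays was left out, namely 80 d replicate 3 (−0.84, 0.0258), 145 d replicate 1 (−0.79, 0.0482), 100 d replicate 1 (0.0464), 130 d replicate 1 (0.047), 130 d replicate 4 (0.0285) and newborn replicate 1 (0.0439). The newborn difference passed without 80 d replicate 3 (−0.74, 0.0433) or newborn replicate 1 (−0.76, 0.0351), and so it did for probe 2 on its own (−1.18, 0.0288) and in the authors' series table (−0.94, 0.0327). For probe 1 it was 0.00233 (0.996). Within the slides that held both ages the difference of 145 d from 80 d was −0.64, −0.59 and −0.38, on 1 or 2 arrays an age. The newborn difference within the same slides was −0.36, −0.68 and −0.29. The slides themselves differed, with KITLG medians of 7.28, 6.83 and 6.51, and the part of that in the spread was not tested. The mean level of 8 of 14 listed markers of hypothalamus, those with a named probe, ran from 8.98 to 10.86 over the hypothalamus arrays and averaged 9.74 at 80 d, 9.42 at 145 d and 9.51 in newborns, and its part in the result was not tested.

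Whether the change from 80 d to 145 d differed between regions was tested in the fit over all arrays. The adjusted p for KITLG was 0.049, a test that 10.6% of genes passed. Without 1 array at a time it ranged from 0.00939 to 0.151 and was lost for 67 of 95 arrays. The highest value came without hypothalamus 80 d replicate 1. It was lost too with an offset of 16 (0.106), with the processed signal (0.18) and for probe 1 (0.928). The KITLG means at these ages were 6.54 and 6.24 in hippocampus, 6.46 and 6.32 in brainstem, and 6.30 at 80 d in cortex, 0.10 below the later age. For 1 d after birth against 80 d the adjusted p of the difference between regions was 0.268, and 0.0427 in the authors' series table.

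In the other regions no KITLG change passed. In brainstem the 4 arrays read 6.51, 6.38, 6.46 and 6.51 at 80 d and 6.27, 6.09, 6.31 and 6.38 in newborns, groups that meet at 6.38. The difference was −0.20 ± 0.08 (SE; adjusted p = 0.0503 in limma, exact permutation p = 0.0571), and −0.18, −0.37 and −0.17 within the slides. The adjusted p ranged from 0.00419 to 0.224 over the alternatives and passed in 8 of 16 of them, and it passed without 80 d replicate 2 (0.0478), 100 d replicate 1 (0.0489), 145 d replicate 3 (0.0435) or newborn replicate 4 (0.0192). In hippocampus the arrays at 80 d, 6.45 to 6.60, did not overlap with those at 145 d, 6.12 to 6.32, nor with those of newborns, 6.21 to 6.43. Such separation held for 15.8% and 16.1% of all genes in hippocampus, and the adjusted p values were 0.406 and 0.583. Hippocampus at 120 d had 1 array at 7.14 beside 6.22 to 6.33. That array had the smallest share of spots well above background of all, 59.5%, and its part in the value was not tested.

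FLT3LG was lowest in cortex. Its mean over the 6 ages was 9.22 in cortex, 10.18 in brainstem and 10.26 in hypothalamus, and the median hippocampus array read 9.81. The cortex arrays ran from 8.81 to 9.70 with a median of 9.16, and the hypothalamus arrays from 9.65 to 10.72 with a median of 10.26. Brainstem arrays ran from 7.18 to 10.79 with a median of 10.26, and apart from 1 array none was below 9.85. So cortex and brainstem separate but for that 1 array, and cortex and hypothalamus overlap only between 9.65 and 9.70.

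Cortex was lower than brainstem by 0.97 ± 0.17 (SE; adjusted p = 1.13e-06 in limma), 1.95-fold, than hypothalamus by 1.04 ± 0.17 (2.83e-07), 2.06-fold, and than hippocampus by 0.89 ± 0.17 (1.17e-05), 1.85-fold. Over all genes, 24.9% were higher in brainstem than in cortex, 26.2% in hypothalamus and 28.2% in hippocampus. No difference among brainstem, hippocampus and hypothalamus passed, with adjusted p from 0.471 to 0.732. The differences to hippocampus depended on 1 slide. Hippocampus slide 4 held 8 arrays, among them the 5 highest of the hippocampus, which read 11.84 at 100 d, 11.92 at 120 d, 11.61 at 130 d, 10.89 at 145 d and 11.46 in newborns. Without that slide the hippocampus arrays ran from 9.05 to 10.17 with a median of 9.76, and hippocampus exceeded cortex by 0.50 (adjusted p = 0.00189). Without it hippocampus was also 0.46 lower than brainstem on the log2 scale (−0.46, 0.00388), against −0.08 (0.732) with it, and hypothalamus exceeded hippocampus by 0.54 (0.00146), against 0.16 (0.471). The same 5 arrays had 59.5 to 72.3% of their spots well above background, and the part of this in their FLT3LG levels was not tested.

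**Figure D3:**
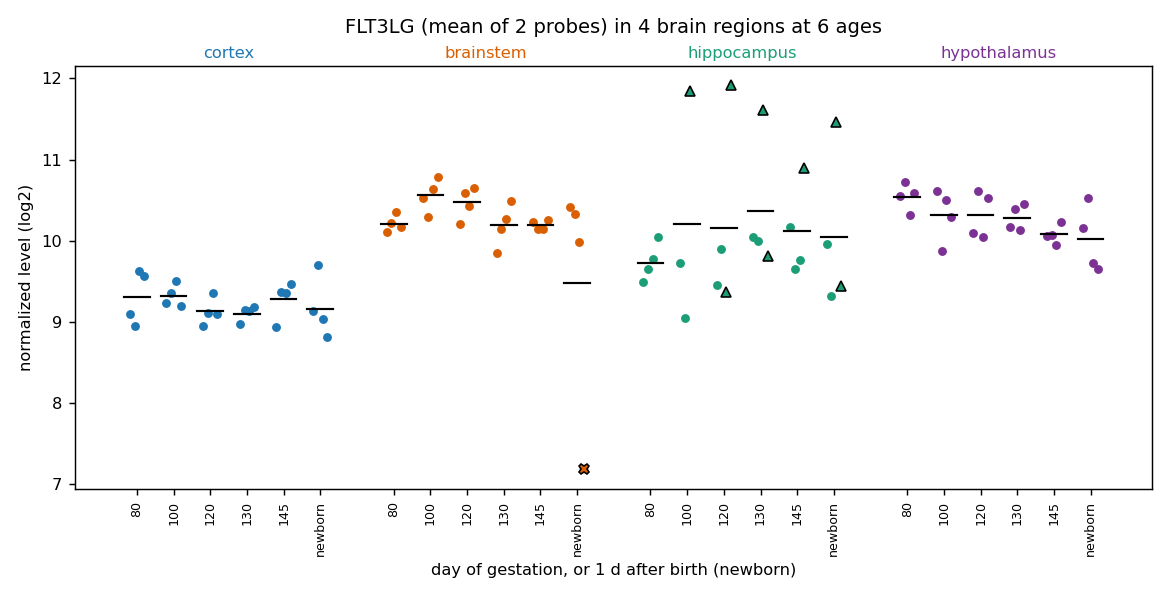
Normalized level (log2) of FLT3LG, the mean of 2 probes, on each array by region and age, with bars for means. Triangles are the 8 arrays of hippocampus slide 4, 5 of which lie at 10.89 or above, and the cross is the newborn brainstem array at 7.18 whose FLT3LG spots lie in a dim area. The cortex arrays lie between 8.81 and 9.70.

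The low brainstem array was newborn replicate 4. A dim area covered 17.79% of its gene spots, with both FLT3LG probes inside it, and the bright probes around these spots differed from the other arrays by −5.01 and −1.62 on the log2 scale. With it the newborn group read 10.42, 10.33, 9.98 and 7.18, a mean of 9.48 ± 1.54 (SD, n = 4). Without it the mean was 10.24 ± 0.23 (n = 3), 0.03 above the 80 d mean of 10.21. The fall of 0.73 that all 4 arrays give against 80 d therefore turns into a rise of 0.03 without that array, and neither is a call (adjusted p = 0.177 for all 4). The other ages of brainstem had means of 10.19 to 10.56.

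In hypothalamus FLT3LG was highest at 80 d, with arrays at 10.55, 10.72, 10.32 and 10.59. It read 10.06, 10.07, 9.95 and 10.23 at 145 d, below all arrays at 80 d, and 10.15, 10.53, 9.73 and 9.65 in newborns, which overlap with them. The difference was −0.47 ± 0.19 at 145 d (adjusted p = 0.108 in limma, exact permutation p = 0.0286) and −0.52 ± 0.19 in newborns (adjusted p = 0.0568, exact permutation p = 0.0571). The smallest p that 4 arrays against 4 allow is 0.0286, and 17.6% of all genes had arrays that did not overlap between 80 d and 145 d. The newborn difference passed without newborn replicate 2 (−0.70, adjusted p = 0.0117), without 80 d replicate 3 (−0.60, 0.0475) and without 100 d replicate 2 (−0.52, 0.0401), and for probe 1 on its own (−0.56, 0.0382). Within the slides it was −0.49, −0.06 and −0.63. No difference between regions in these changes was called for FLT3LG, with adjusted p of 0.783 at 145 d and 0.525 in newborns.

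In cortex no group mean of FLT3LG was above 9.32, and the arrays of each pair of neighbours in that order overlapped. Hippocampus had group means of 9.73 to 10.37, and its SDs reached 1.46 with slide 4 included. The probes of FLT3LG, which differ by 1 base at each end, had a correlation of 0.938 over the 95 arrays, given as a description since they share the arrays and slides. The same correlation was 0.508 for the KITLG probes, 0.528 for the KIT probes and 0.231 for the probes of the STAT5A record.

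IL7 was not measured above background in most groups, and its region difference is therefore reported with its limits only. Array values lay between 5.86 and 6.83, and the 5 arrays well above background were 2 in cortex, 2 in brainstem and 1 in hippocampus. Hypothalamus was 0.17 ± 0.05 lower than hippocampus (adjusted p = 0.00589 in limma), with 0 of 24 arrays well above background in hypothalamus and 1 of 23 in hippocampus, so this difference lies between levels at background. Without hippocampus slide 4 it was −0.03 (0.682), and with the slide as a block −0.13 (0.228). In 4 hippocampus and 2 hypothalamus arrays the IL7 spot also lay in a dim area at the array's edge.

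KIT, the receptor for KITLG, was higher in hippocampus than in brainstem on the mean over the 6 ages. This mean was 6.34 in hippocampus, 6.26 in cortex, 6.21 in hypothalamus and 6.12 in brainstem. The hippocampus arrays ran from 6.02 to 6.72 with a median of 6.31 and the brainstem arrays from 5.91 to 6.46 with a median of 6.06, so the regions overlap over much of their range. Hippocampus exceeded brainstem by 0.22 ± 0.04 (SE; adjusted p = 1.83e-06 in limma), and by 0.23 with the slide as a block (0.00366). Over all genes, 28.4% were higher in hippocampus than in brainstem. Brainstem was 0.15 ± 0.04 lower than cortex (0.000804), as 27.4% of genes were, and hypothalamus 0.13 ± 0.04 lower than hippocampus (0.00307), as 23.8% were. Both calls were lost with the slide as a block, at 0.0809 and 0.105, the first also with the processed signal (0.0585) and the second for probe 1 (0.156). Hippocampus over cortex (0.07, 0.0961) and hypothalamus over brainstem (0.09, 0.0571) did not pass. The order was not the same at every age, since cortex had the highest mean at 130 d, 145 d and in newborns, and brainstem at 80 d, with 6.33, came next after hippocampus. KIT was well above background on 19 of 24 arrays in hypothalamus, 17 of 24 in cortex, 15 of 23 in hippocampus and 9 of 24 in brainstem. At this signal, differences of such size are narrowed by the offset, and the processed signal gave 1.05 for hippocampus over brainstem.

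By the mean of its 2 probes, KIT in brainstem was lower in newborns than at 80 d, the only age change of the 4 genes that passed. The limma F test over the ages did not pass there (adjusted p = 0.085), nor did 145 d against 80 d (0.196). The arrays read 6.31, 6.28, 6.38 and 6.35 at 80 d, a mean of 6.33 ± 0.04 (SD, n = 4), and 5.99, 6.05, 6.01 and 6.18 in newborns, a mean of 6.06 ± 0.09. All newborn arrays were below all arrays at 80 d, which held for 33.6% of all genes in one direction or the other. The difference was −0.27 ± 0.10 (adjusted p = 0.0298 in limma, exact permutation p = 0.0286), and 21.1% of all genes were called lower in newborn brainstem. All 4 arrays at 80 d and 0 of 4 newborn arrays were well above background. Newborn replicate 4 had its KIT probe 1 spot in a dim area. Each newborn array was then set to its dimmest probe well above background, or to its KIT reading where that was higher. The means gave 1.18-fold more KIT at 80 d, a value without sampling error and not a strict bound. The level between was lower at 100 d (6.11 ± 0.08) and 120 d (5.99 ± 0.04, 0 of 4 arrays well above background) and wider at 145 d (6.16 ± 0.23), where 1 array read 6.46. Within the slides the newborn difference was −0.30, −0.33 and −0.25.

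**Figure D4:**
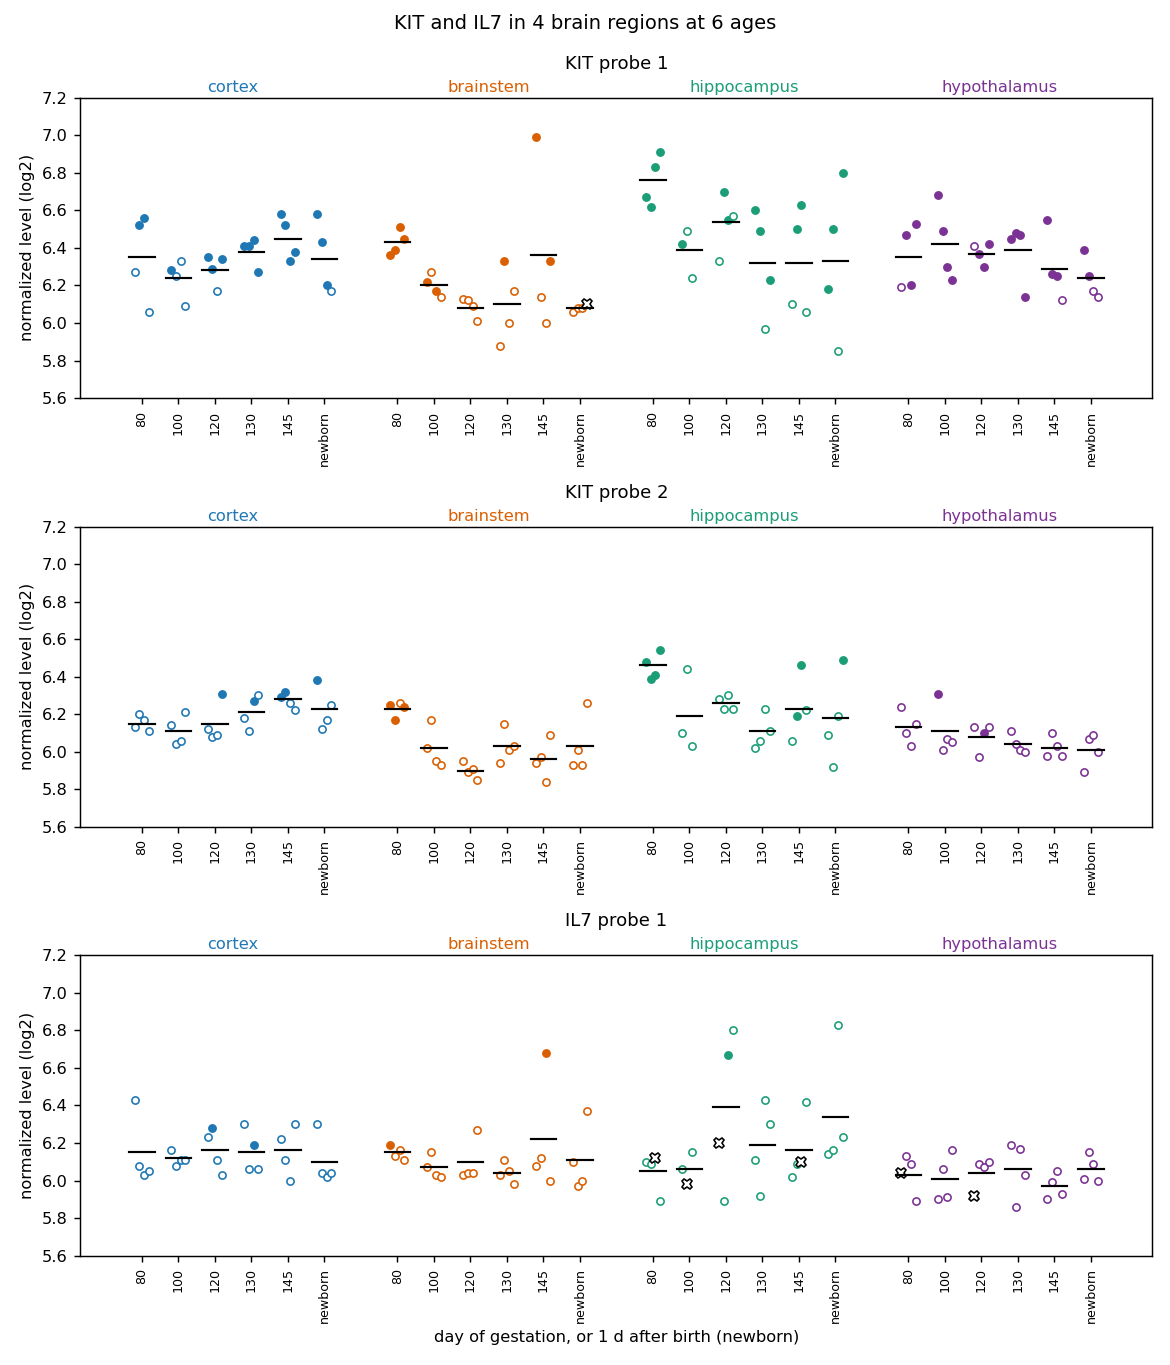
Normalized level (log2) of the 2 KIT probes and the IL7 probe on each array by region and age. Filled points are well above background, open points are not, crosses lie in a dim area of their array, and bars are means. In brainstem all 4 points of KIT probe 1 are filled at 80 d and 0 of 4 in newborns.

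The size of the KIT change moved with the background correction. It was −0.51 with an offset of 16 and −1.49 with the processed signal. The call was lost for probe 1 on its own (−0.35, adjusted p = 0.0529) and for the brightest probe. Probe 1 of newborn replicate 4 lay in the dim area of that array. Yet probe 1 was the only KIT probe that passed the filter on dim probes in brainstem. Probe 2 was well above background on 3 of 24 arrays there and entered the mean because other regions kept it. The call was also lost without 80 d replicate 3 (−0.25, 0.0707), without 80 d replicate 4 (−0.27, 0.0584), without newborn replicate 1 (−0.25, 0.066) and without newborn replicate 3 (−0.25, 0.0611). Leaving out the spots in dim areas gave −0.25 (0.0446). Of the markers of mast cells, which carry KIT, 3 of 9 listed had a named probe. In brainstem TPSB2 was well above background on 24 of 24 arrays, FCER1A on 7 and MS4A2 on 1, and their mean level ran from 6.18 to 6.56 over the arrays, with 6.26 at 80 d and 6.33 in newborns. Their part in the KIT levels was not tested.

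In hippocampus KIT read 6.58, 6.50, 6.62 and 6.72 at 80 d, and 6.31 to 6.46 at 120 d. The share of all genes whose arrays separate between these ages was not counted, and this pair was not tested on its own. The newborns read 6.13, 6.21, 6.02 and 6.65, of which 1 array reached the 80 d range. The difference was −0.35 ± 0.15 with an adjusted p of 0.199. Hypothalamus and cortex had KIT group means of 6.13 to 6.27 and 6.17 to 6.36. Whether the change differed between regions gave an adjusted p of 0.0891 at 145 d and 0.116 in newborns. These passed with the slide as a block (0.0315 at 145 d) and without hippocampus slide 4 (0.0232 in newborns). At 145 d they also passed without brainstem 145 d replicate 1 (0.0409), without hippocampus 145 d replicate 3 (0.0205) and without hippocampus newborn replicate 4 (0.0492), and in newborns without the last of these (0.0116).

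Ordering the ages within each region and the regions at each age for the 4 genes gave 152 neighbouring pairs. The same count was not made over all genes, so it is a description only. Of the 152 pairs, 12 had arrays that did not overlap. Among the regions these were, for KITLG, hypothalamus over hippocampus at 80 d and in newborns, hypothalamus over cortex at 100 d, and cortex over brainstem at 120 d. For FLT3LG they were brainstem over hippocampus at 80 d and the step down to cortex at 120, 130 and 145 d. For KIT they were hippocampus over brainstem at 80 d, and hippocampus over hypothalamus and cortex over brainstem at 120 d. Within a region the only such pair was KIT in hippocampus at 80 d over 120 d. Over the 6 ages KIT and KITLG had a correlation of 0.988 in brainstem, 0.796 in hippocampus, 0.706 in hypothalamus and 0.0189 in cortex. These are descriptions over 6 group means that share arrays, slides and normalization.

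The genes whose 24 group means were most like those of each member were sought among 870 genes with a symbol. For KITLG these were CRYBB3, a lens crystallin (r = 0.893), ISL1, a transcription factor of motor and hypothalamic neurons named isl1 in the files (0.849), and SPRY-4 (0.844), by name a Sprouty gene. For FLT3LG they were VIM, the intermediate filament of radial glia (0.925), SFTPC, a lung surfactant protein (0.872), and MGLUR4, a glutamate receptor (0.844). For KIT they were CLMP, a cell adhesion protein (0.801), COX5A of the respiratory chain (0.772) and SLIT2, an axon guidance factor (0.752). The points share normalization and, within a region, slides. Over the ages of cortex alone, r was −0.585 for VIM with FLT3LG, −0.511 for isl1 with KITLG and −0.488 for COX5A with KIT. For isl1 it was −0.089 in hippocampus. The other values within a region were positive. The FLT3LG means include the arrays of hippocampus slide 4 and the newborn brainstem array with its spots in a dim area.

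The probes of the STAT5A record changed with age in cortex and brainstem by the limma F test (adjusted p = 0.0102 and 0.00894), while hippocampus (1) and hypothalamus (0.575) did not pass. The cortex call was lost for probe 2 on its own (0.172), and the brainstem call for probe 1 on its own (0.0524) and the brightest probe (0.0525). Although the 2 probes share 59 bases, their correlation over the 95 arrays was only 0.231. STAT5A is a transcription factor activated by cytokine receptors. In cortex the arrays read 6.39, 6.46, 6.27 and 6.46 at 80 d and 6.79, 6.73, 6.63 and 6.50 at 145 d, without overlap, which held for 34.9% of all genes. The difference was 0.27 ± 0.07 (adjusted p = 0.0056 in limma) and 0.22 ± 0.07 in newborns (0.0169). In brainstem they went the other way, from 6.87, 6.94, 6.90 and 6.91 at 80 d to 6.37, 6.52, 6.37 and 6.57 at 145 d. The difference was −0.45 ± 0.10 at 145 d (0.000987) and −0.32 ± 0.10 in newborns (0.0101), and no array at 80 d overlapped with either group, which held for 48.9% and 33.6% of all genes. Over all genes, 40.9% were called at 145 d and 44.3% in newborns in cortex, and 37.5% and 42.9% in brainstem.

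The difference between regions was called for these probes at 145 d (adjusted p = 0.000212) and in newborns (0.00954), tests that 10.6% and 11.8% of genes passed. The newborn call was lost for probe 1 (0.122) and probe 2 (0.0936) on their own, for the brightest probe (0.123) and in the authors' series table (0.129). Within the slides the changes at 145 d were 0.37, 0.46 and 0.10 in cortex and −0.46, −0.53 and −0.34 in brainstem. In cortex the calls were lost for probe 2 on its own (0.17 with adjusted p = 0.11 at 145 d, and 0.13 with 0.208 in newborns). The newborn call there was also lost without cortex 80 d replicate 3 (0.0644), newborn replicate 2 (0.0684) or newborn replicate 3 (0.0528). The processed signal gave 1.24 and 0.99 in cortex and −1.21 and −0.91 in brainstem. Averaging all 4 probes that the files name KITLG would give KITLG an age call in cortex (0.046) and brainstem (0.0159), where the KITLG record on its own had 0.284 and 0.0989.

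**Figure D5:**
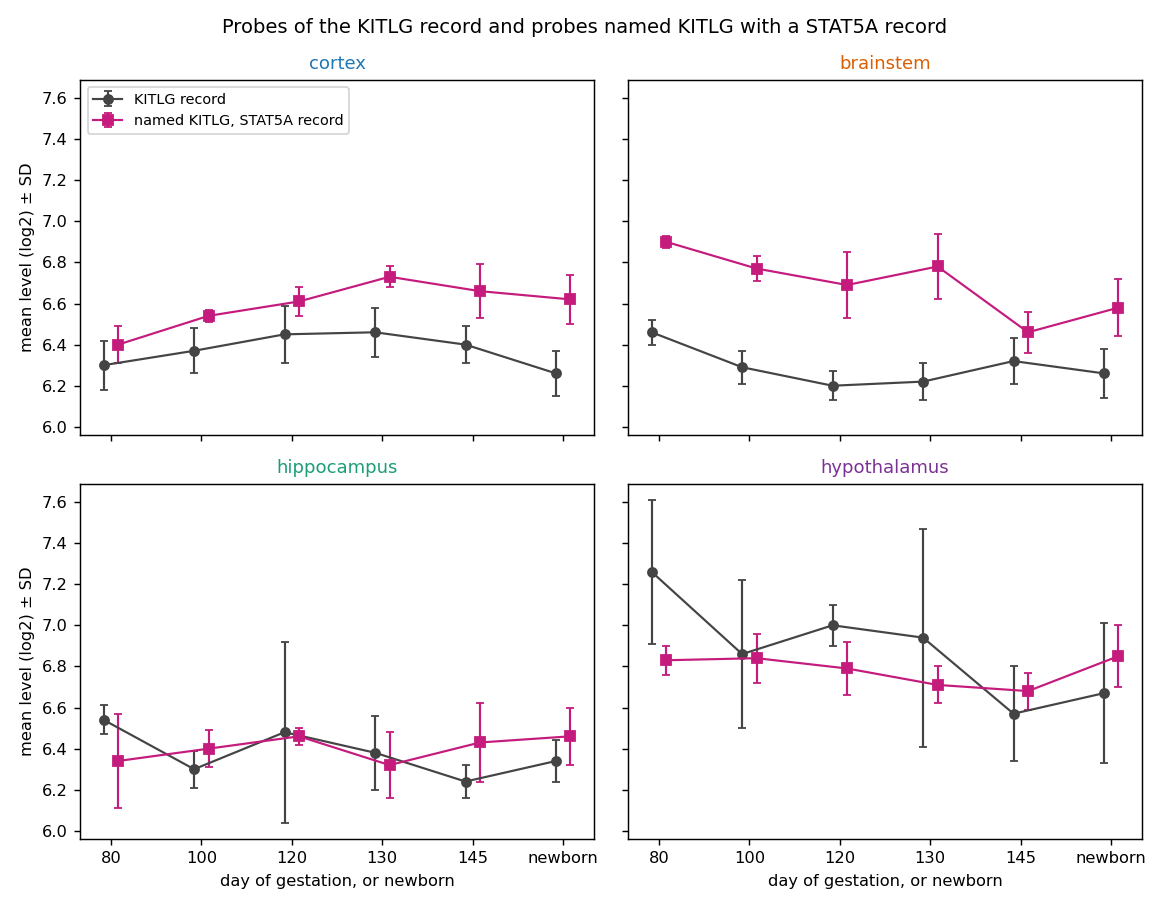
Mean level (log2) ± SD (n = 4, hippocampus at 100 d n = 3) of the 2 probes of the KITLG record and of the 2 probes named KITLG whose record is STAT5A, by age in each region. From 80 d to 145 d the STAT5A record rises by 0.27 in cortex and falls from 6.90 to 6.46 in brainstem, while the KITLG record goes from 7.26 to 6.57 in hypothalamus.

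Of the other genes of these pathways, few had a named probe. From lists of 21 ligands, 24 receptors and 28 signalling genes, 11, 4 and 4 were named on the array, and no probe was named FLT3, IL7R or IL2RG. Of all genes, the age F test called 45.3% in cortex and 40.5% in brainstem, but 15.8% in hypothalamus and 3.03% in hippocampus. Among the ligands it called 1 of 9 tested in cortex, 1 of 10 in brainstem, 1 of 8 in hippocampus and 0 of 7 in hypothalamus, all higher in newborns than at 80 d. Among the receptors it called 1 of 4 in cortex, brainstem and hypothalamus each and 0 of 4 in hippocampus. Among the signalling genes it called 4 of 4 in cortex and brainstem, 1 of 4 in hypothalamus and 0 of 4 in hippocampus. The medians of the newborn change were −0.04, 0.01, 0.11 and −0.01 for the ligands in cortex, brainstem, hippocampus and hypothalamus, beside −0.04, 0.03, −0.02 and −0.03 over all genes. They were 0.01, 0.01, −0.23 and −0.07 for the receptors and −0.20, −0.33, −0.01 and 0.17 for the signalling genes in the same order.

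IL12A, a subunit of interleukin 12, was called in hippocampus, from 6.80 ± 0.08 at 80 d to 8.32 ± 0.31 in newborns (SD, n = 4), and in cortex, from 6.52 ± 0.13 to 6.83 ± 0.14. CXCR4, the receptor of the chemokine CXCL12 that holds stem cells in the marrow, was called lower in newborns in cortex (9.31 ± 0.16 to 7.83 ± 0.27) and hypothalamus (8.93 ± 0.24 to 7.29 ± 0.32). BCL2, which blocks cell death, was called in cortex, from 12.67 ± 0.30 at 80 d to 10.04 ± 0.49 in newborns, and in brainstem, where its newborn change of −0.33 did not pass (adjusted p = 0.228). AKT1, a kinase downstream of KIT, was called in cortex, brainstem and hypothalamus, with newborn changes of −0.62, −1.17 and 0.13, of which the last did not pass (0.763).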

How the data were processed

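RNA of 95 samples was hybridised to one-colour Agilent sheep arrays. The deposited scanner files hold intensity values, per the file headers extracted by the authors with Agilent Feature Extraction 10.1.1.1. The authors' series table holds log2 normalized values of 11138 probes, 4 of them of members. Its 95 columns each correlated best with their own array (r from 0.998 to 0.999), and it served as an alternative.

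Signals were background corrected by normexp with an offset of 50 in limma 3.58.1 (R 4.3.3). Its parameters were fitted without spots more than 20 below their local background, which 17 arrays had, since on 12 arrays these moved the negative controls by over 20. Values were log2 transformed and quantile normalized over all arrays, and spots marked as outliers were left out. A probe was kept in a region where at least 4 arrays had it at 1.1 times the negative controls' 95th percentile or more, and a gene's value is the mean of its probes kept in at least 1 region. Well above background is the scanner's own mark.

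Ages were compared within each region by limma's F test and against 80 d. Regions, and the difference between regions in an age change, were tested in 1 fit over 95 arrays with 24 group means. P-values were adjusted over all genes by Benjamini-Hochberg and called below 0.05. Exact permutation tests were two-sided. The scripts were tested on simulated data. Gene names come from the files and, by accession, from RefSeq (ARS-UI_Ramb_v3.0). A dim area is a stretch where bright probes read over 1 lower (log2) than on other arrays.

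The members and lists were chosen with earlier results of these data known. Named were the members, pathway genes called by the F test in at least 2 regions, and the 3 genes most like each member that was well above background on enough arrays. One pathway gene that this rule names is not reported here. The number of arrays limits the precision. The alternatives were an offset of 16, the processed signal, the series table, normalization within regions, other filters, single probes, the replicate number and the slide as blocks, other variance settings, outlier marks kept, and leaving out each array. Chosen after seeing the data were fitting the background on all spots, leaving out dim areas, averaging all 4 probes named KITLG, and leaving out hippocampus slide 4. Figures were drawn with matplotlib 3.10.9.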

Additional observations from a re-analysis of the deposited data

Results flagged for a closer look

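Among 115 groups of 4 arrays, 10 had an array far from the other 3 by Dixon's criterion, which chance gives in about 1 of 20 groups. KITLG read 7.14 in hippocampus at 120 d replicate 4, on slide 4, beside 6.22 to 6.33. In hypothalamus 1 d after birth replicate 1 KITLG read 7.17, beside 6.47 to 6.54. FLT3LG read 7.18 in brainstem 1 d after birth replicate 4, beside 9.98 to 10.42, where its spots lay in a dim area. It read 11.61 in hippocampus at 130 d replicate 3, on slide 4, beside 9.81 to 10.05. The other 6 were of IL7, at or near background. IL7 read 6.43 in cortex at 80 d replicate 1 (others 6.03 to 6.08), 6.30 in cortex 1 d after birth replicate 1 (6.02 to 6.04) and 6.27 in brainstem at 120 d replicate 4 (6.03 to 6.04). It read 5.89 in hippocampus at 80 d replicate 4 (6.09 to 6.12) and 6.83 in hippocampus 1 d after birth replicate 3, on slide 4 (6.14 to 6.23). In hypothalamus at 120 d replicate 1, where its spot lay in a dim area, it read 5.92 (6.07 to 6.10).

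The change from 80 d to 145 d differed between regions for KITLG (adjusted p = 0.049 in limma) and for the probes of the STAT5A record (0.000212), and so did the change to 1 d after birth for the latter (0.00954). This last call was lost for either probe on its own (0.122 and 0.0936), the brightest probe (0.123) and the authors' series table (0.129).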

How the results depend on the processing

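Of 19 answers to comparisons, 14 stayed on the same side of the threshold under all settings other than leaving out 1 array, and 275 of 284 such values did. Averaging all 4 probes named KITLG gave KITLG age tests an adjusted p of 0.046 in cortex and 0.0159 in brainstem. The KIT age test in brainstem gave 0.044 with an offset of 16, 0.00665 with the processed signal and 0.0412 with trend and robust settings. The KITLG difference between regions in the change to 145 d gave 0.106 with an offset of 16, 0.18 with the processed signal and 0.928 for probe 1. IL7 between regions gave 0.403 with the slide as a block. The newborn change of KITLG in hypothalamus reversed to 0.00233 for probe 1 (adjusted p = 0.996), and for probe 2 of the STAT5A record hypothalamus minus cortex reversed to −0.04 (0.553). FLT3LG in hippocampus minus brainstem, not called, ranged from −0.21 to 0.02 with 1 array left out, reversing (0.02, 0.941) without hippocampus 100 d replicate 2. The cause was not tested.

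With 1 array left out, 737 of 808 values stayed on the same side. For the age test, KIT ranged from 0.229 to 0.495 in cortex, 0.0366 to 0.207 in brainstem, 0.383 to 1 in hippocampus and 0.683 to 0.887 in hypothalamus. KITLG ranged from 0.182 to 0.453, 0.0449 to 0.238, 0.699 to 1 and 0.103 to 0.484 in the same regions, and FLT3LG from 0.296 to 0.838, 0.061 to 0.409, 0.936 to 1 and 0.0962 to 0.462. IL7 ranged from 0.854 to 0.998 in cortex and 0.553 to 0.889 in brainstem. In brainstem KIT passed without 145 d replicate 1 (0.0366), 145 d replicate 3 (0.0373) or newborn replicate 4 (0.0438), and KITLG without newborn replicate 4 (0.0449). Between regions KIT ranged from 6.23e-07 to 2.27e-05, KITLG from 4.05e-16 to 9.59e-13, FLT3LG from 1.71e-10 to 3e-07 and IL7 from 0.00275 to 0.0377. The KITLG difference between regions at 145 d ranged from 0.00939 to 0.151.

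Samples of the same age and replicate number in different regions had deviations with a median correlation of 0.0543 (−0.369 to 0.583), so the numbers were not taken as pairs. With the replicate block none of the 19 answers changed sides, the KITLG difference between regions being 0.04. Single KITLG changes passed with it, at 0.0145 for 145 d and 0.0275 for newborns in hypothalamus and 0.0433 for newborns in brainstem. In these age tests the block joined arrays of different ages, and so of different animals, by replicate number. It was therefore not a pairing of animals. Signal over background limits KIT and IL7, which were near background on many arrays.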
